A study of Rattus norvegicus with 10 samples.

Results

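The insulin-like growth factor (IGF) ligands, receptors and binding proteins were followed in the mammary glands of weanling female rats. They comprise the ligands Igf1 and Igf2, the receptors Igf1r, Igf2r and Ghr, and the binding proteins Igfbp2, Igfbp3, Igfbp4, Igfbp5 and Igfbp6. Their members were all probe sets whose single gene symbol in the platform annotation was one of these 10 genes, which gave 20 of the 15923 probe sets on the array. Of these, 16 probe sets, with at least 1 for each gene, passed a filter on low signal (a mean log2 signal of at least 7.47, the 40th percentile). The other 4, 3 for Igf2 and 1 for Igfbp5, lay far below it.

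Female SD rats received a purified AIN-93G diet whose protein was soy protein isolate in the soy group and casein in the casein group. Both diets began at gestation day 4 and lasted until weaning, and RNA came from whole glands at postnatal day 21. There were 5 arrays for soy (numbered 147, 149, 155, 157 and 159) and 5 for casein (6, 7, 10, 18 and 20). The labels speak of RNA pools with several labelled targets made from each, so p-values here reflect only array-to-array spread, part of which may be technical.

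Circulating IGF1 is made largely by the liver when growth hormone activates its receptor, GHR, and many tissues also make IGF1 and IGF2 locally. Both ligands signal through the tyrosine kinase receptor IGF1R, whereas IGF2R carries IGF2 to lysosomes for degradation, and secreted binding proteins hold most IGF and set how much reaches the receptors. In the rodent mammary gland, growth hormone acts on the stroma, and stromal IGF1 drives growth of the ducts.

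The glands differed in tissue make-up within each diet, which bears on several of the values below. All tissue levels in this paragraph are mean log2 signals of a list of marker genes. Skeletal muscle genes (18 tested of 27 listed) were at 11.39 or above on soy 147, 149 and 157 and on casein 6, and at 8.24 or below on the other 6 arrays. Fits below without the 4 arrays high in muscle therefore set only soy 155 and 159 against casein 7, 10, 18 and 20. Lymph node and lymphocyte genes (16 of 23) were at 6.76 on soy 149 and 6.94 on casein 6, and at 9.39 or above elsewhere. Luminal epithelial genes (8 of 17) ran from 7.05 to 10.08 in soy and from 6.69 to 10.84 in casein, and the 3 lowest arrays were soy 149, soy 159 and casein 6. The summed signal of the 8 luminal genes was 1467 to 11388 in soy and 1048 to 16996 in casein. None of them was at 0, but Epcam was at 4.53 on soy 159 and Krt18 at 4.49 on casein 6, both under the signal filter. Adipocyte genes (12 of 15) lay between 10.82 and 11.89 in soy and between 11.13 and 11.54 in casein, and fibroblast and matrix genes (19 of 19) between 12.05 and 12.57 in soy and between 12.24 and 12.50 in casein. Nerve and Schwann cell genes (7 of 11) ran from 9.84 to 10.90 in soy and from 9.63 to 9.95 in casein. The 3 highest arrays, soy 149, soy 157 and soy 147, lay above all casein arrays, and soy 155 and soy 159 lay among them. The ratio of the 3' to the 5' actin probe set, a measure of RNA integrity, was 1.41 to 1.57 in soy and 1.22 to 1.54 in casein. Casein 6, 7 and 10, at 1.333, 1.301 and 1.223, lay below every soy array. The same ratio for GAPDH was 1.137, 1.156 and 1.131 on these casein arrays, against 1.278 or above in soy. Casein 18 and 20 lay within the soy range for both ratios. Neither ratio was used as a covariate, and the part of RNA integrity in the diet differences was not tested. In whole tissue, fewer cells of a type and less RNA per cell cannot be told apart.

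Set against casein, soy-fed glands had more Igfbp3 and less Igfbp4 signal, but no IGF probe set passed the test over all probe sets. The log2 differences were 0.70 ± 0.22 at the brightest Igfbp3 probe set and -0.38 ± 0.13 for Igfbp4 (SE, n = 5 per diet). The second Igfbp3 probe set differed by 0.44 ± 0.24 (SE; limma unadjusted p = 0.085). In limma, 0 of the 16 tested probe sets had an adjusted p under 0.05, as did 0 of all 9520 probe sets tested (0%), and the adjusted p of the 16 ran from 0.98 to 0.999. At an unadjusted p under 0.05 there were 2 of 16, against 433 of 9520 (4.55%) for the whole array. Of these, 1 of 16 was higher in soy (2.31% of the array) and 1 of 16 lower (2.24% of the array). An exact permutation test of each probe set gave 0 of 9520 at an adjusted p under 0.05 and 459 (4.82%) at an unadjusted one. Its smallest possible p is 0.0079, so an adjusted p under 0.05 would need very many probe sets at that smallest p. The 0 of this test is therefore no second result beside limma. The soy and casein arrays overlapped for all 16, where they did not for 76 probe sets of the array (0.798%). Of the 16, 5 had a positive and 11 a negative soy minus casein difference, with a median of -0.19. Over the array 4505 were positive and 5015 negative, with a median of -0.01. The tally of the 16 counts a gene once for each tested probe set. Igf1, Ghr, Igfbp5 and Igfbp6 entered the negatives with both of theirs.

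**Figure D1:**
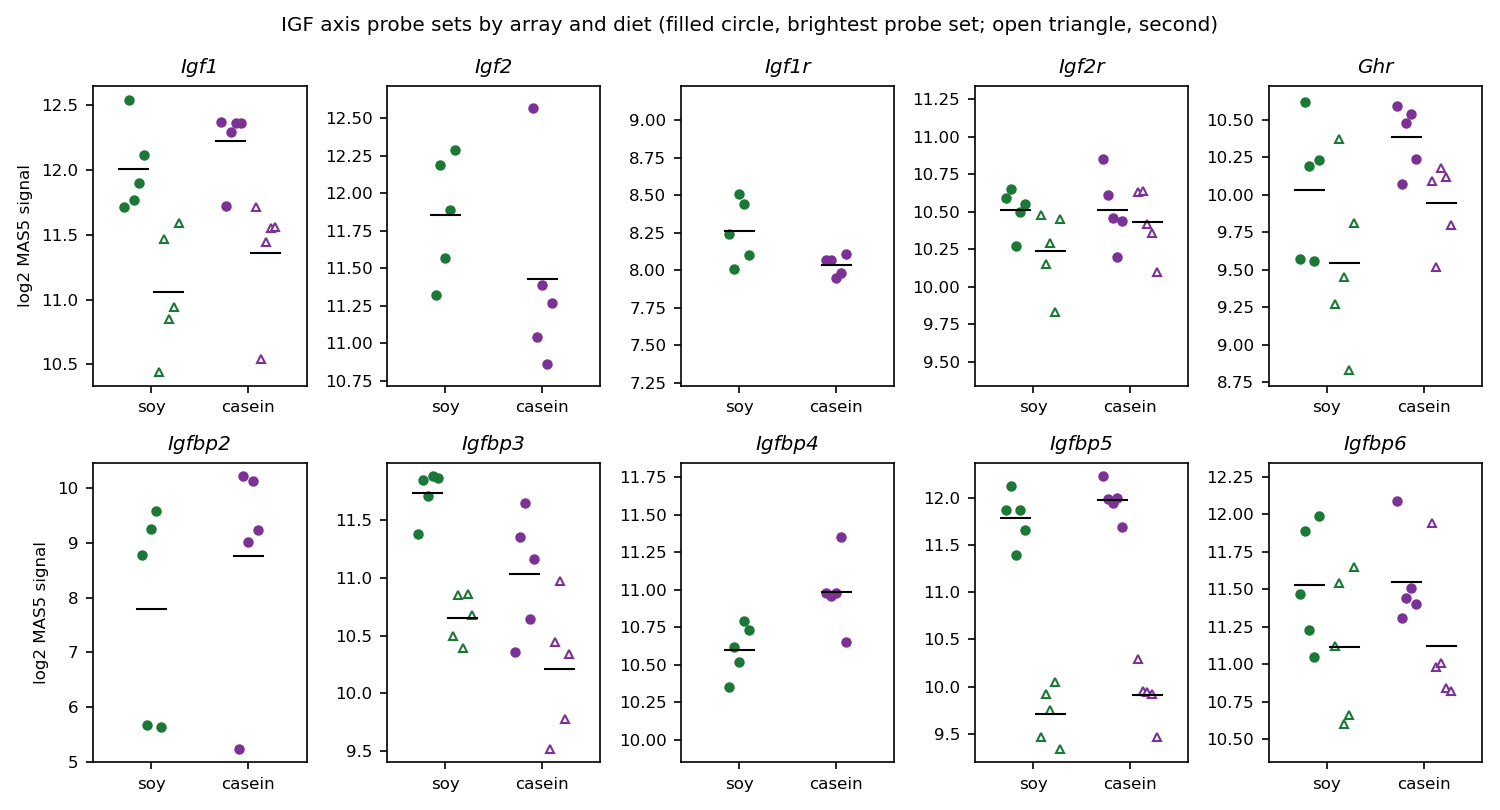
Log2 MAS5 signal (vertical axes, each panel with its own range) of the 16 tested IGF axis probe sets on the 5 soy (green) and 5 casein (purple) arrays. Each point is an array and each short line a diet mean, with filled circles for the brightest and open triangles for the second probe set of a gene. Igfbp2 spans 5.24 to 10.22 and falls into a low set of 3 arrays and a high set of 7.

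Promoter sequences are shown for the 5 genes on which the results turn, namely Igfbp3 and Igfbp4 with the smallest p-values, Igfbp2 with the widest range between arrays, and Igf1 and Ghr, whose signals ran together. All 10 genes had an entry among the RefSeq promoters of the rat assembly GRCr8. The 250 bases before the annotated start are given 5′ to 3′. The Igf1 window is chr7:24172282-24172531 on the plus strand and that of Ghr chr2:54432076-54432325 on the minus strand. Those of Igfbp2, Igfbp3 and Igfbp4 are chr9:81864561-81864810 on the plus strand, chr14:86277945-86278194 on the minus strand and chr10:84491221-84491470 on the plus strand. Capitals mark matches, on either strand, to the GC box GGGCGG, the TATA box TATAAA, the CCAAT box CCAAT and the STAT5 motif TTCNNNGAA, and no matches overlapped.
Igf1: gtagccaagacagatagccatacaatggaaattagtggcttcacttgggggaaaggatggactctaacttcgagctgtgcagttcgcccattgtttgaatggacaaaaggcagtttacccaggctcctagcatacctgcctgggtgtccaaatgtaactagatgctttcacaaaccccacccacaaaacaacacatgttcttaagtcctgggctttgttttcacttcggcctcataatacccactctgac
Ghr: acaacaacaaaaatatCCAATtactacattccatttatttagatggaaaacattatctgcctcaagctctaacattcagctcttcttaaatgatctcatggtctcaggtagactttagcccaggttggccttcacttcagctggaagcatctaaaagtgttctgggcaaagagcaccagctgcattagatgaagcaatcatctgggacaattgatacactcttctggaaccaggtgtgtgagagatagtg
Igfbp2: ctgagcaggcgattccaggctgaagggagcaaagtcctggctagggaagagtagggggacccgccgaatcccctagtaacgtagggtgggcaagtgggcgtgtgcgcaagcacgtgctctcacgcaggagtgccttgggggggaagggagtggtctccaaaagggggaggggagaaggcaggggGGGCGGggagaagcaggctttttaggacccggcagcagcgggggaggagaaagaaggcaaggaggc
Igfbp3: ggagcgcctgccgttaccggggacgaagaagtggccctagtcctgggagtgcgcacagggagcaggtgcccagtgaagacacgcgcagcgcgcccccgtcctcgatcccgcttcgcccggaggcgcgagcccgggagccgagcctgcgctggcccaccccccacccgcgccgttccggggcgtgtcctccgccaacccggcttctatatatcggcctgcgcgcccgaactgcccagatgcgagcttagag
Igfbp4: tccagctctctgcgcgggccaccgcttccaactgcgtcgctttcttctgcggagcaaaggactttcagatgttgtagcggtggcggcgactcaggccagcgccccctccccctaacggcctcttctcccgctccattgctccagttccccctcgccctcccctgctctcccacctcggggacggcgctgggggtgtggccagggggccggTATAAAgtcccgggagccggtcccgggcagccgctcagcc
The windows of Igf1 and Ghr held 46.8% and 40.8% G or C, below the median of 51.2% over 33469 rat promoter windows, while Igfbp2, Igfbp3 and Igfbp4 held 64.0%, 71.6% and 68.8%. A GC box was matched in Igfbp2, 66 to 61 bases before the start, as in 30.5% of all windows. A TATA box was matched in Igfbp4, 40 to 35 bases before the start, as in 12.9% of all windows, and a CCAAT box in Ghr, as in 34.0%. The STAT5 motif, the site of the factor that acts below GHR, was in 7.7% of all windows and in none of these 5.

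Igf1, the ligand made in response to growth hormone, had a bright signal on every array and a soy mean slightly below that of casein. At its brightest probe set (1388469_at) the log2 signal was 11.71, 12.54, 11.77, 11.90 and 12.11 on soy 147, 149, 155, 157 and 159, against 12.37, 11.72, 12.29, 12.36 and 12.36 on casein 6, 7, 10, 18 and 20. The 3 lowest soy arrays lay beside casein 7, apart from the other 4 casein arrays, which lay close together, and soy 149 was the highest of all, so the diets overlapped. The difference was -0.21 ± 0.175 (SE, n = 5 per diet; limma adjusted p = 0.98). It was -0.14 without soy 147, -0.34 without soy 149 and -0.34 without casein 7, and -0.09 with the muscle and lymph node list means as covariates. The second Igf1 probe set (1370333_a_at) differed by -0.30 ± 0.26 (SE), by -0.15 without soy 147 and by -0.51 without casein 7. Without the 4 arrays with high muscle signal it was -0.05, and with the muscle and lymph node list means as covariates -0.08. It correlated with the first at r = 0.91 over the 10 arrays.

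Igf2, the growth factor that is expressed from the paternal allele and is abundant in fetal tissue, was higher in soy on average but not beyond the spread. At the probe set that passed the filter (1367571_a_at) it was 11.32, 12.19, 11.57, 11.89 and 12.29 on soy 147, 149, 155, 157 and 159, against 12.57, 11.04, 11.39, 10.86 and 11.27 on casein 6, 7, 10, 18 and 20. Casein 6 was the highest of the 10 arrays, and 4 of the 5 soy arrays lay above the other 4 casein arrays, the exception being soy 147, below casein 10. The difference was 0.42 ± 0.30 (SE, n = 5 per diet; limma adjusted p = 0.98) and was 0.71 without casein 6 (limma adjusted p = 0.667; 0.493 to 1 over all alternatives). Without the 4 arrays with high muscle signal, which include casein 6, it was 0.79 (limma adjusted p = 0.493). The other 3 Igf2 probe sets, for which the annotation gives the same gene, had log2 signals of only 1.81 to 5.24 on all arrays and were not tested. Without the filter their differences were 0.19, 0.17 and 0.37, each with an adjusted p of 0.87 or more in limma.

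Among the receptors, Ghr, which binds growth hormone, was at 9.57, 10.62, 10.19, 9.56 and 10.23 on soy 147, 149, 155, 157 and 159 at its brightest probe set (1373803_a_at), against 10.59, 10.07, 10.48, 10.54 and 10.24 on casein 6, 7, 10, 18 and 20. Soy 147 and soy 157 stood clearly below every other array, whereas soy 149 was the highest. The difference was -0.345 ± 0.201 (SE, n = 5 per diet; limma adjusted p = 0.98), and the second probe set (1368924_at) gave -0.40 ± 0.25 (SE). Without soy 147 or soy 157 the first was -0.23 in each case, and the second was -0.60 without soy 149 and -0.22 without soy 157. Soy 147 and soy 157 also had the lowest adipocyte list means, 10.82 and 11.08, and were among the 4 arrays with high muscle signal. Without those 4 arrays the difference at the brightest probe set was -0.12, and with the muscle and lymph node list means as covariates it was -0.09.

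Igf1r, the receptor kinase for both ligands, was dimmer and the least variable member, with a standard deviation within diets of 0.158, at the 19.7th percentile of all probe sets tested. Its signal was 8.24, 8.01, 8.51, 8.44 and 8.10 on soy 147, 149, 155, 157 and 159, against 8.07, 8.07, 7.95, 7.98 and 8.11 on casein 6, 7, 10, 18 and 20. The casein arrays lay close together and 3 soy arrays lay above all of them, while soy 149 and soy 159 lay among them. The difference was 0.22 ± 0.12 (SE, n = 5 per diet; limma adjusted p = 0.98; exact permutation p = 0.0635), and 0.14 with the muscle and lymph node list means as covariates. Igf2r, the clearance receptor for IGF2, lay between 9.83 and 10.65 in soy and between 10.10 and 10.85 in casein over its 2 probe sets. They correlated at only r = 0.35 over the 10 arrays and gave -0.19 ± 0.145 and 0.0015 ± 0.123 (SE), the first of which was -0.09 without soy 157 and -0.01 without the 4 arrays with high muscle signal.

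Igfbp3, the main carrier of IGF in blood, had the smallest p of the members and ranked 67th of the 9520 probe sets by p. Its brightest probe set (1386881_at) was at 11.38, 11.85, 11.71, 11.88 and 11.86 on soy 147, 149, 155, 157 and 159, against 10.36, 11.35, 11.65, 10.64 and 11.16 on casein 6, 7, 10, 18 and 20. Every soy value exceeded the average of the casein arrays, 11.03. Casein 10 lay within the soy range, and the other 4 casein arrays lay below it. The soy mean was 11.73 ± 0.21 and the casein mean 11.03 ± 0.53 (SD, n = 5 each), a difference of 0.70 ± 0.22 (SE; limma unadjusted p = 0.00803, adjusted p = 0.98; exact permutation p = 0.0159). It stayed between 0.54 and 0.86 when any 1 array was left out. The second probe set (1367652_at), which correlated with the first at r = 0.94, gave 0.44 ± 0.24 (SE; limma unadjusted p = 0.085), 0.27 without casein 6 and 0.15 without the 4 arrays with high muscle signal. The low casein signals were those of casein 6 and casein 18, of which casein 6 is rich in muscle and poor in lymph node and luminal signal and casein 18 is not. Without the 4 arrays with high muscle signal the difference at the brightest probe set was 0.58, and with the luminal list mean as a covariate it was 0.73.

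Igfbp4, an inhibitory binding protein that the protease PAPP-A cleaves, was the other member with an unadjusted p under 0.05. It was at 10.35, 10.62, 10.52, 10.79 and 10.73 on soy 147, 149, 155, 157 and 159, against 10.98, 10.96, 10.98, 11.35 and 10.65 on casein 6, 7, 10, 18 and 20. Casein 20 lay within the soy range and the other 4 casein arrays lay above every soy array. The soy mean was 10.60 ± 0.17 and the casein mean 10.98 ± 0.25 (SD, n = 5 each), and the difference was -0.38 ± 0.13 (SE; limma unadjusted p = 0.013, adjusted p = 0.98; exact permutation p = 0.0238). The nerve and Schwann cell list, which was on average higher in soy, was not used as a covariate, and its part in the Igfbp3 and Igfbp4 differences was not tested. Leaving out any 1 array kept the Igfbp4 difference between -0.47 and -0.29, and with the luminal list mean as a covariate it was also -0.38. Without the 4 arrays with high muscle signal it was -0.36, with a limma unadjusted p of 0.0725 (adjusted p = 0.593), so that the unadjusted call ended there. That fit set only soy 155 and 159 against casein 7, 10, 18 and 20, so its p-value rests on fewer arrays.

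**Figure D2:**
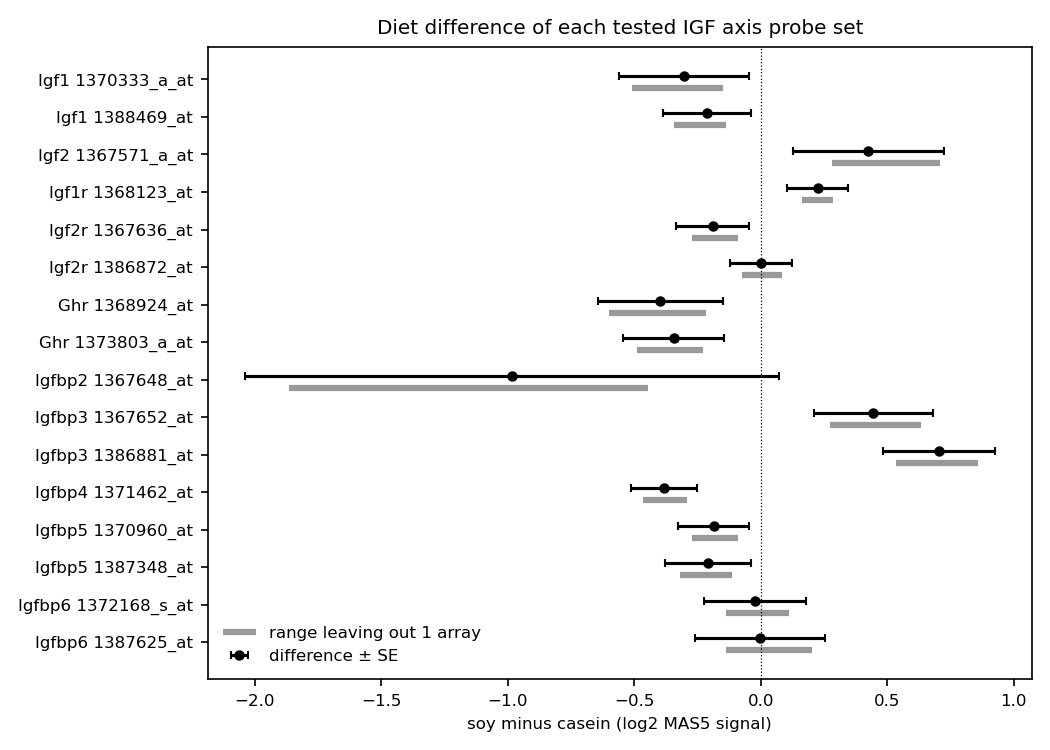
Soy minus casein difference in log2 MAS5 signal (horizontal axis) for each tested IGF axis probe set (rows). Points with bars are the limma estimate ± SE from 5 arrays per diet, and grey bars are the range of the estimate when 1 array is left out. The brightest Igfbp3 probe set and Igfbp4 have the smallest p, at 0.70 and -0.38, and Igfbp2 has the widest range, -1.86 to -0.44. All rows but Igf2r 1386872_at and both Igfbp6 probe sets stay on their side of 0 when 1 array is left out.

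Igfbp2, a binding protein found in many epithelia, differed far more between arrays than between diets. Its signal was 8.78, 5.68, 9.25, 9.59 and 5.63 on soy 147, 149, 155, 157 and 159, against 5.24, 10.22, 9.01, 10.13 and 9.23 on casein 6, 7, 10, 18 and 20. It fell into a low set of soy 149, soy 159 and casein 6 and a high set of the other 7. The low set lay far under the signal filter of 7.47, so no fold is given between the sets. The standard deviation was 1.97 in soy and 2.04 in casein, and the spread within diets lay at the 99.5th percentile of all probe sets tested. The diet difference was -0.98 ± 1.06 (SE, n = 5 per diet; limma adjusted p = 0.992). It was -1.86 without casein 6, -0.46 without soy 149, -0.44 without soy 159, -0.62 without casein 7 and -0.64 without casein 18. Without the 4 arrays with high muscle signal it was -2.21 (limma adjusted p = 0.532), and with the muscle and lymph node list means as covariates -1.61 (limma adjusted p = 0.755). The only soy arrays in the first of these fits were soy 155, at 9.25, and soy 159, at 5.63.

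The 3 arrays low in Igfbp2 were the 3 with the lowest luminal epithelial list means. They were also the 3 lowest in basal and myoepithelial genes (6 tested of 11 listed). That list mean was 9.28 on soy 149, 8.74 on soy 159 and 8.77 on casein 6, against 9.54 or above elsewhere. Luminal and basal signal were thus low together, and the basal list was not used as a covariate. On soy 149, soy 159 and casein 6 the luminal mean was 7.96, 7.05 and 6.69, Krt8, a luminal keratin, was at 7.72, 6.96 and 7.32, and Krt19 at 7.42, 6.31 and 6.58. On the other 7 arrays the luminal mean was 8.76 or above and Krt8 8.92 or above. Within those 7 arrays Igfbp2 ran from 8.78 to 9.59 in soy and from 9.01 to 10.22 in casein. With the luminal list mean as a covariate the Igfbp2 diet difference was -0.58 (limma adjusted p = 0.891; 0.532 to 1 over all alternatives), while without soy 159 and casein 6, the 2 arrays lowest in luminal signal, it was -1.33 (limma adjusted p = 0.718). The latter fit kept soy 149, with Igfbp2 at 5.68, in the soy group, while no array low in Igfbp2 remained in casein. No fit left out all 3 low arrays.

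The same 3 arrays had the highest signals of Igf2 and of Igfbp6, a binding protein that prefers IGF2. Igf2 was 12.19, 12.29 and 12.57 on soy 149, soy 159 and casein 6, against 11.89 or below on the other 7 arrays. Igfbp6 at its brightest probe set (1372168_s_at) was 11.89, 11.99 and 12.09 on these arrays, and between 11.05 and 11.47 on the other soy arrays and 11.31 and 11.51 on the other casein arrays. Soy 159 had a muscle list mean of 6.96, among the lowest, whereas soy 149 and casein 6 were high in muscle, so the 3 arrays did not share a muscle level. Their fibroblast list means, 12.57, 12.43 and 12.50, were the 3 highest of the 10. The part of the epithelial and stromal make-up of the glands in these values was not tested beyond the covariate fits. With the luminal list mean as a covariate the Igf2 diet difference was 0.32 (limma unadjusted p = 0.0458, adjusted p = 0.863), while without soy 159 and casein 6 it was 0.60 (limma unadjusted p = 0.0101, adjusted p = 0.61). That second fit kept soy 149, with Igf2 at 12.19, in the soy group.

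**Figure D3:**
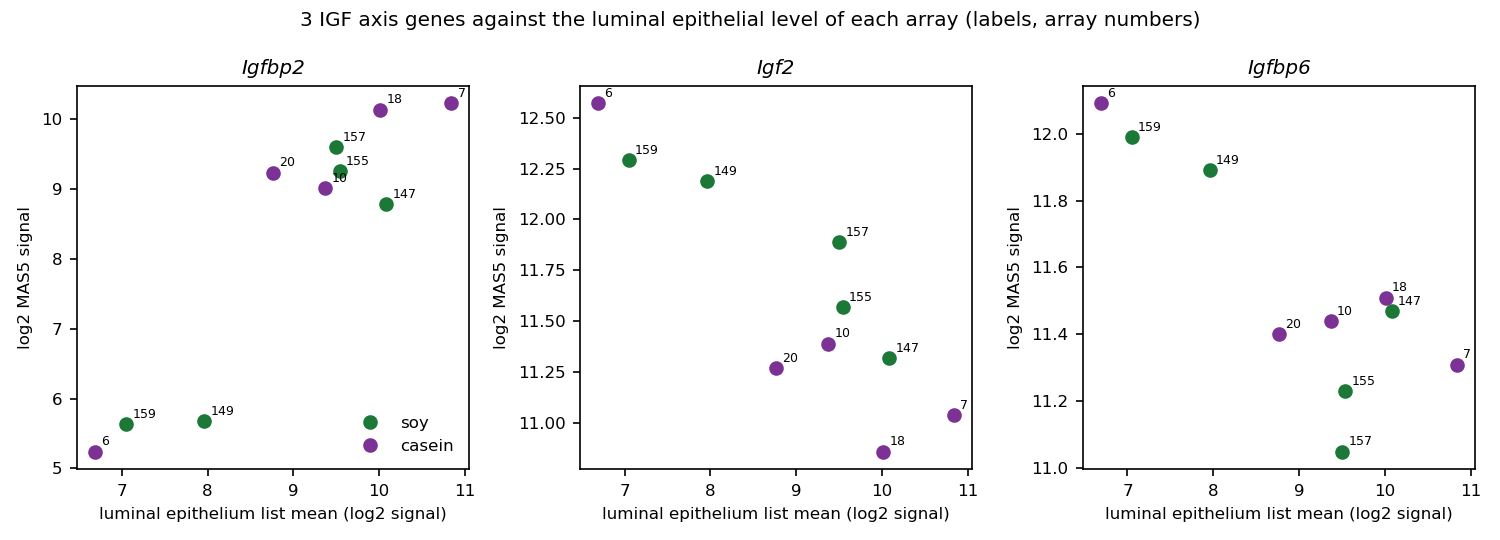
Log2 MAS5 signal of Igfbp2, Igf2 and Igfbp6 (vertical axes, brightest probe set) against the mean log2 signal of 8 luminal epithelial genes (horizontal axes) on the 5 soy (green) and 5 casein (purple) arrays, labelled by array number. The arrays soy 149, soy 159 and casein 6 have the lowest luminal means, the lowest Igfbp2 and the highest Igf2 and Igfbp6.

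Igfbp6 showed no diet difference beyond its spread, with -0.02 ± 0.20 and -0.0031 ± 0.258 (SE, n = 5 per diet; limma adjusted p = 0.999 for both) at probe sets that correlated at r = 0.95. Both values turned sign with some single arrays left out, for example to 0.11 and 0.20 without casein 6 and to 0.10 and 0.11 without soy 157. Igfbp5, a binding protein that rises in rodent mammary epithelium during involution, lay between 11.39 and 12.13 in soy and between 11.69 and 12.23 in casein at its brightest probe set (1370960_at). The differences at its 2 tested probe sets were -0.19 ± 0.14 and -0.21 ± 0.17 (SE; limma adjusted p = 0.98 for both). The first was -0.09 without soy 155 and -0.12 without casein 6, and the second -0.12 without soy 159, -0.11 without casein 6 and -0.32 without casein 20. Without the 4 arrays with high muscle signal the first was -0.38, and without soy 159 and casein 6 the second was -0.02. The third Igfbp5 probe set lay between 3.35 and 5.15 on all arrays and was not tested.

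The tested member probe sets had a higher median spread between arrays of 1 diet than the array as a whole, but not every member did. The median of their standard deviations within diets was 0.361, against 0.229 over all 9520 probe sets tested. This median counts a gene once for each of its tested probe sets. Igfbp2 and Igf2 lay at the 99.5th and 94.5th percentiles, and both probe sets of Igfbp6, Igfbp3 and Ghr at the 83.8th or above. Igf1 lay at the 91.8th and 75.2th and Igfbp5 at the 53.0th and 72.3th. Lower were Igf1r at the 19.7th, Igf2r at the 36.6th and 55.5th and Igfbp4 at the 44.0th.

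Correlations between members over the 10 arrays were computed for 36 pairs among 9 genes at their brightest probe sets, leaving out Igfbp2 because its arrays fell into separate sets. Igf1 and Ghr ran together most closely. Their Pearson r was 0.80 (permutation p = 0.0052, adjusted p = 0.19 over the 36 pairs) and their Spearman rho 0.92 (permutation p = 6.6e-04, adjusted p = 0.024). Without soy 147 and casein 7, the arrays farthest from the Igf1 median, r was 0.75, and within the diets it was 0.79 in soy and 0.80 in casein. By rho it was 1 of 36 pairs with an adjusted p under 0.05, and by r there were 0, with 6 at an unadjusted p under 0.05. Igf2 and Igfbp6 had r = 0.66 and rho = 0.43 (permutation p = 0.039 and 0.22, adjusted p = 0.28 and 0.46), and r was 0.20 without soy 159 and casein 6, on which the relation over all arrays rested. With those arrays kept, r was 0.63 within soy and 0.91 within casein. Igf1r ran against Igf1, with r = -0.66 and rho = -0.54 (permutation p = 0.035 and 0.12, adjusted p = 0.28 and 0.38), and r was -0.90 without soy 147 and casein 7, but -0.78 in soy and -0.21 in casein.

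**Figure D4:**
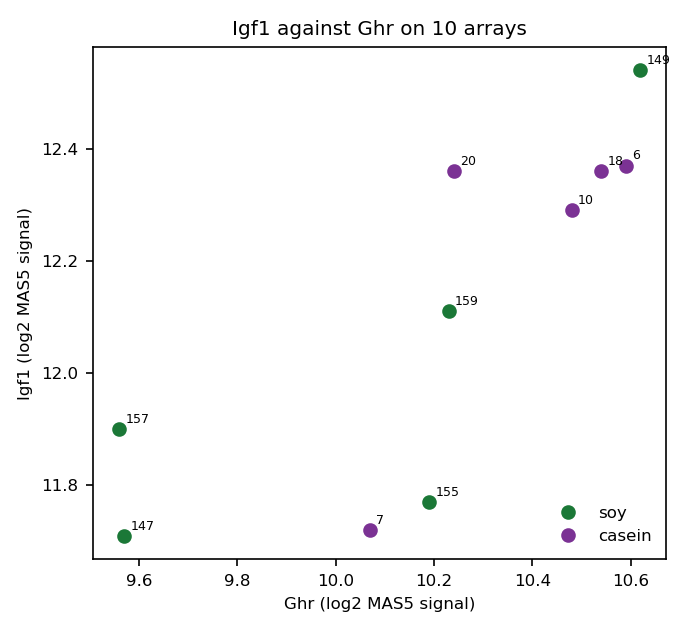
Log2 MAS5 signal of Igf1 (vertical axis) against that of Ghr (horizontal axis) at their brightest probe sets on the 5 soy (green) and 5 casein (purple) arrays, labelled by array number. Arrays low in Ghr are low in Igf1, with Pearson r = 0.80 and Spearman rho = 0.92 over 10 arrays.

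For each member, at its brightest probe set only, the 3 other genes with the most similar pattern were found. The measure was Pearson r of log2 signal over the 10 arrays, among the 8147 or 8148 other named probe sets tested, as a description with no p. Closest to Igfbp2 were Olah, the thioesterase that releases medium-chain fatty acids in the rodent mammary gland (r = 0.976), Rprd1b (0.973) and Lxn (0.953). These values for Igfbp2 take in the split between its low and high sets of arrays, and r was not computed within the sets. Closest to Igfbp3 were Pdp1, a phosphatase that activates pyruvate dehydrogenase (0.925), Pmepa1, an inhibitor of TGF-beta signalling (0.919), and Fkbp5, a glucocorticoid-induced immunophilin (0.909). Closest to Ghr were the mitochondrial enzymes Echs1 (0.954) and Hibadh (0.938), and then Dennd5a (0.937). For Igf1 they were Pdhx, a pyruvate dehydrogenase subunit (0.919), Tshr, the thyrotropin receptor (0.916), and Ndst1 (0.906). For Igf2 they were Fam171b (0.965), Npffr2 (0.938) and Fxyd1 (0.914), and for Igfbp6 Septin2 (0.948), Ndn, the imprinted growth suppressor necdin (0.940), and Ddah2 (0.938). Igf1r was nearest to the translation factor subunit Eef1g (0.924), Imp3 (0.896) and Cdc34 (0.891), and Igf2r to the Wnt receptor Fzd2 (0.948), Radil (0.920) and C1qtnf5 (0.915). The other Igf2r probe set, which correlated with this one at only r = 0.35, was not searched. Igfbp4 was nearest to Ppat (0.897), B4galt1 (0.894) and Clec11a (0.887), and Igfbp5 to Slc37a4 (0.911), Tmcc2 (0.904) and Amotl1 (0.901).

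Other genes of the pathway, from hormone and docking proteins to kinases, gave as many small p-values as the array as a whole. Of 66 genes listed, 51 were on the array and 34 were tested at 44 probe sets, of which 20 were positive and 24 negative, with a median difference of -0.02. In limma 0 passed at an adjusted p under 0.05, and 2 (4.55%) had an unadjusted p under 0.05, the same share as over the array. Cish, an inhibitor of growth hormone and prolactin signalling induced by STAT5, was at 7.80, 8.83, 7.87, 7.95 and 8.50 on soy 147, 149, 155, 157 and 159, against 7.32, 6.72, 7.72, 7.23 and 7.48 on casein 6, 7, 10, 18 and 20. Here every soy array lay above every casein array, and the difference was 0.895 ± 0.238 (SE, n = 5 per diet; limma adjusted p = 0.98). The casein mean of 7.29 was itself under the signal filter of 7.47, so Cish was tested only through the soy arrays, where the mean was 8.19. H19, the maternally expressed noncoding RNA beside Igf2, was at 13.38, 14.01, 13.12, 14.29 and 13.62 on the soy arrays, against 13.84, 12.61, 12.60, 12.97 and 13.07 on the casein arrays, in the same order. Its 3 highest arrays, soy 157, soy 149 and casein 6, were also those with the highest muscle signal, and the difference was 0.67 ± 0.265 (SE; limma adjusted p = 0.98).

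The next smallest p-values in the pathway belonged to Pik3ca, the catalytic subunit of PI3 kinase, with -0.21 ± 0.12 (SE), Htra1, a protease that can cleave IGF binding proteins, with -0.18 ± 0.13, the ribosomal S6 kinase Rps6kb1 with -0.16 ± 0.11 and the docking protein Irs2 with 0.175 ± 0.126. All 4 had a limma adjusted p of 0.98. A second tested probe set of Rps6kb1 had the opposite sign, 0.14 ± 0.19 (SE), and that of Pik3ca differed by -0.06 ± 0.19 (SE). Insr, the insulin receptor, differed by 0.06 ± 0.22 (SE), Jak2, the kinase bound to GHR, by -0.08 ± 0.16, Stat5a by -0.08 ± 0.11 and Igfbp7, a related binding protein with low affinity for IGF, by -0.03 ± 0.13. Gh1, Igfals, Igfbp1, Irs1, Socs2 and Stat5b lay below the signal filter.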

How the data were processed

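Per the submitters' processing notes, the authors used MAS5 to turn each 1-colour array of biotin-labelled cRNA into 1 linear signal intensity per probe set. Its version and settings were not given in the sources used here. The 2% trimmed mean of the deposited intensity was 500.1 on every array and the median 255.7 to 286.0, so the scaling was kept. The number of arrays limits the precision.

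The log2 of each signal was taken after raising signals under 1 to 1. Of 15923 probe sets, 57 controls were left out. The annotation gave 1 gene for 12783 of the rest, several for 312 and none for 2771, and 12748 identifiers were found in the RefSeq table of GRCr8, which changed 0 symbols. The 9520 probe sets with a mean log2 signal of at least 7.47 were fitted in limma 3.58.1 (R 4.3.3; lmFit, then eBayes allowing the variance to follow intensity), with two-sided p-values adjusted by Benjamini-Hochberg over all 9520 and a threshold of 0.05. Differences are log2 soy minus log2 casein. Single values were also tested with an exact permutation test over every assignment of the arrays (smallest p 0.0079), and correlations with 100000 permutations, two-sided. For tissue lists the brightest tested probe set stood for each gene. The steps were tested on simulated data.

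The genes named are all members, the pathway genes with the smallest p (6 by rule, with others of the axis chosen for their role after values were seen) and, for each member, the 3 most similar. The members, lists and tests were chosen with earlier results of these data known. Alternatives were quantile normalization, median centring, no filter or a 60th percentile filter, log2 of the signal plus 16, no intensity trend, array weights, tissue list means as covariates, and leaving out each array or the arrays high in muscle or low in lymph node signal. Leaving out the 2 arrays with the lowest luminal means was chosen after seeing the data.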

Additional observations from a re-analysis of the deposited data

Results flagged for a closer look

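A single array stood far from the other 4 of its diet in 5 of the 40 sets of 5 arrays examined (20 probe sets in each diet), by Dixon's ratio of the gap to the range, whose 95% critical value is 0.71. About 1 in 20 such sets would be singled out by chance if they were independent. They were not, because probe sets of the same gene and values of the same arrays enter repeatedly. All 5 lay in the casein group, on casein 6 or casein 7, and Igf1 and Igfbp6 each entered with both of their tested probe sets. For Igf1 casein 7 was low, at 10.54 against 11.44 to 11.71 (ratio 0.763) and at 11.72 against 12.29 to 12.37 (ratio 0.888). For Igfbp2 casein 6 was low, at 5.24 against 9.01 to 10.22 (ratio 0.758). For Igfbp6 casein 6 was high, at 12.09 against 11.31 to 11.51 (ratio 0.738) and at 11.94 against 10.82 to 11.01 (ratio 0.827).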

How the results depend on the processing

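Under the 23 alternatives, 0 member probe sets reached an adjusted p under 0.05 (lowest 0.493), and 13 of the 16 kept the sign of their difference. The exact permutation test is among the 23, and with a smallest p of 0.0079 it could hardly reach that threshold. The count of probe sets over the array at an adjusted p under 0.05 was 0 in each refit. At an unadjusted p under 0.05 it was 433 of 9520, and 843 of 15866 with no filter and 280 of 6347 with a 60th percentile filter. Those 3 counts have different numbers tested and cannot be compared directly. It was 712 of 9520 with array weights and 838 without the arrays high in muscle. Without those low in lymph node signal it was 686, and without those low in luminal genes 694. With 1 array left out it was 272 to 704, the lowest without casein 18 and the highest without casein 6. Of the members, 2 had such a p, and 4 with array weights or without the arrays high in muscle, 5 with either set of tissue covariates, 6 without the arrays low in lymph node signal and 2 to 6 with 1 array left out (6 without soy 149, 4 without casein 6). Over the array there were 613 with the muscle and lymph node covariates, 526 with the luminal covariate and 558 without soy 149. The brightest Igfbp3 probe set had one in all 23 alternatives and Igfbp4 in 22, the exception being without the arrays high in muscle.

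The probe sets that turned sign lay close to 0 in the main fit, at 0.0015 for Igf2r and -0.0232 and -0.0031 for Igfbp6. Under the alternatives Igfbp6 moved as far as 0.2154. At 1386872_at Igf2r was -0.02 with median centring, -0.0566 with muscle and lymph node covariates, -0.0204 with the luminal covariate, -0.0164 without the arrays high in muscle and -0.0756 to 0.0853 with 1 array left out. At 1372168_s_at Igfbp6 was 0.1464 with array weights, 0.1433 with muscle and lymph node covariates, 0.1965 without the arrays high in muscle, 0.0224 without those low in lymph node signal and -0.139 to 0.1125 with 1 array left out. At 1387625_at Igfbp6 was 0.0034 with quantile normalization and, under the same 4 settings, 0.2154, 0.1117, 0.2137 and 0.0959, 0.0669 without the arrays low in luminal genes, and -0.1379 to 0.2018 with 1 array left out. The cause was not tested. Igf1r and Igfbp2 had too low a mean signal for the 60th percentile filter. No paired analysis was possible because the diets share no array numbers. Without detection calls, dim probe sets could not be set against background.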
